A study of Mus musculus with 12 samples.

Results

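The 135 genes described here carry the pathway term RNA transport, and not the term Spliceosome, in the annotation column of the deposited tables, out of 22935 genes listed. Of the 148 genes with the RNA transport term, 13 were left out because they also carried Spliceosome. By role, 30 members were nuclear pore components, 16 were soluble transport factors, 36 were translation initiation factors or their 4E binding proteins, and 53 were other RNA transport genes, such as the SMN complex, RNase P and the exon junction complex. All 3 groups analysed were BV2 cells, an immortalised mouse microglial line, and all 3 received 10 µM oxyhaemoglobin (oxy-Hb), the oxygen-bound form of haemoglobin, which red cells release when they lyse. One group had oxy-Hb alone, 1 had oxy-Hb with C3a, the complement peptide that activates the receptor C3aR, and 1 had oxy-Hb with C3aRA, an abbreviation that the labels leave unexplained. The labels list C3a at 20 ug/ul, where the unit is open to doubt, and C3aRA at 50 µM. There were 3 libraries per group. A PBS group of 3 samples was not analysed here, and no change with oxy-Hb itself was measured. Nothing in the labels tells whether the replicates of a group came from separate cultures. The p-values thus measure only how far these libraries differ, and that spread may be technical. As a single line in culture, BV2 cells model microglia without the other cells of brain tissue.

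RNA leaves the nucleus through the nuclear pore, a ring of nucleoporins anchored in the nuclear envelope, with a scaffold of Y-shaped complexes, an inner ring, a central channel and filaments on either face. Importins and exportins carry proteins, transfer RNA and small RNAs through it in a direction set by the GTPase Ran, while most messenger RNA leaves with the Nxf and Nxt export receptors after processing. In the cytoplasm, eIF4F binds the 5′ cap, eIF2 brings the initiator transfer RNA, eIF3 bridges the small ribosomal subunit to the messenger, and eIF5 and eIF5B act at start codon recognition and subunit joining.

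Total counts ran from 12934794 to 20479002 per library. All 12 microglial markers examined were tested, and they summed to 2175 to 2386 CPM (counts scaled to library size) in oxy-Hb, 2450 to 3076 with C3a and 2389 to 2498 with C3aRA. Aif1 was the lowest of these 12 genes, at 2.03 CPM. Whether the share of RNA from these genes bears on the results was not tested. Of the listed markers of other cells, 1 astrocyte and 1 neuronal gene had a row in the tables and reached at most 0.709 and 0.833 CPM, 2 red cell genes at most 1.62 CPM, 1 endothelial gene at most 1.66 CPM and 2 oligodendrocyte genes at most 11.6 CPM. C3a replicate 2 stood apart from the other 8 libraries, with a score of 76.33 on the leading principal component against -23.84 to 10.78. In that library, log2 CPM fell by 0.138 with each doubling of transcript length, against slopes of -0.0033 to 0.0454 elsewhere. The main counts of calls and the class medians with C3a are given with and without it. Many values of single genes and some of smaller groups, such as the eIF3 median, are given with all libraries only.

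Promoter sequence was available from RefSeq (GRCm38.p6) for 108 of the 135 members. The 7 stretches shown here, each from 120 bases before to 15 bases after the annotated start site and written 5′ to 3′ on the gene's strand, belong to the 6 members called with C3a against oxy-Hb and to Gemin6, the member with the lowest adjusted p between C3a and C3aRA. Clns1a (chr7:97696537-97696671, plus strand), Eif5b (chr1:37997890-37998024, plus strand), Gm49336 (chr14:60251465-60251599, minus strand) and Sumo3 (chr10:77605977-77606111, plus strand) rose. Eif4g3 (chr4:137993335-137993469, plus strand) and Upf1 (chr8:70353265-70353399, minus strand) fell. Gemin6 lies at chr17:80224331-80224465 on the plus strand. Capitals mark an exact match to an E-box (CACGTG) in Clns1a and to a cAMP response element (TGACGTCA) in Gemin6.
Clns1a: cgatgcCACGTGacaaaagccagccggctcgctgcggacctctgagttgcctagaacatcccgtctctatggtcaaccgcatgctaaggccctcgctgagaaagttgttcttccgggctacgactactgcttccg
Eif5b: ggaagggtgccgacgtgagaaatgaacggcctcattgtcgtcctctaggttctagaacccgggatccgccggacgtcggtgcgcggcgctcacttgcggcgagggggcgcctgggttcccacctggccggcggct
Gm49336: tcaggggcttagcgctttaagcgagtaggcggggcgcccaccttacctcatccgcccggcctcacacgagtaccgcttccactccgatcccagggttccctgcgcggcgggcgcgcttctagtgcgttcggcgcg
Sumo3: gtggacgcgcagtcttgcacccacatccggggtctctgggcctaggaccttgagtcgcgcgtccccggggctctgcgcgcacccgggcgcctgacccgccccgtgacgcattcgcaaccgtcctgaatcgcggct
Eif4g3: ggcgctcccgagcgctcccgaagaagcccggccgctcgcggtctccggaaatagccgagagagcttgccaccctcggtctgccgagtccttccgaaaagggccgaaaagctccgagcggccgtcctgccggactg
Upf1: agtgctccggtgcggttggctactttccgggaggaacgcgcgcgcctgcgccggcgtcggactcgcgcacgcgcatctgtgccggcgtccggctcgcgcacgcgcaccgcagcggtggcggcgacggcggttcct
Gemin6: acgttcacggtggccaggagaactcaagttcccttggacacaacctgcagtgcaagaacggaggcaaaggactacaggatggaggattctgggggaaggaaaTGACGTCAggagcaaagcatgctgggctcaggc
The E-box of Clns1a began 114 bases before its start site and the cAMP response element of Gemin6 began 18 bases before. In windows of 300 bases searched on both strands, the E-box letters occurred in 16 of the 108 members (14.8%), in 7.24% of all 27025 promoters and in 10.3% of the 9441 promoters of tested genes. TGACGTCA occurred in 5.56% of members against 3.42% of promoters of tested genes, the ETS motif CCGGAAGT in 11.1% against 9.23%, the NRF1 motif (GCGCA directly followed by TGCGC) in 7.41% against 2.26%, and the CCAAT box in 32.4% against 39%. Among the 27 searched promoters of initiation factors, 5 held the E-box, 4 the ETS motif and 7 the CCAAT box, while 0 held TGACGTCA and 0 the NRF1 motif. At shares of 3.42% and 2.26% over tested genes, 0 of 27 says little. None of these 5 motifs was found within the 135 bases shown for the other 5 genes. For a member the start site nearest to the gene's 5′ end in the deposited annotation was used, and for the background the first listed promoter of each gene. The percentages thus compare start sites picked by unlike rules. These matches are letters in a window and were not tied to any change.

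The members were well expressed. Per kb of transcript, the median level was 57.9 CPM for initiation factors, 37.7 CPM for transport factors, 34.6 CPM for nuclear pore genes and 24.6 CPM for the other members, against 7.82 CPM over all tested genes. The elongation factor gene Eef1a1, which delivers aminoacyl transfer RNA to the ribosome, was highest at 10111 CPM per kb, followed by the poly(A) binding protein gene Pabpc1 at 564 CPM per kb. Subunits of 1 complex differed widely. Within eIF3, levels ran from 4.83 CPM per kb for Eif3j2 to 457 for Eif3e, and within eIF2B, the exchange factor that reloads eIF2 with GTP, from 14.97 for Eif2b4 to 56.6 for Eif2b2. Of the cap-binding eIF4F genes, the helicase gene Eif4a1 had 343 CPM per kb, the scaffold gene Eif4g1 111, the cap-binding Eif4e 52.7 and the second scaffold gene Eif4g3 10.4. Nup88 was the highest nuclear pore gene at 115 CPM per kb, and the pore membrane gene Nup210l the lowest at 0.383. Ran stood at 285 CPM per kb among the transport factors. The other 2 members were not tested because of low counts. Eif4ebp3 was between 0 and 0.88 CPM and Gemin4 between 0 and 0.899 CPM over the 9 libraries, where 3 counts equal 0.146 to 0.232 CPM; that limit concerns counting error only. Counts of Eif3j1 and Eif3j2, Eif1a and Eif1ax, Sap18 and Sap18b, Ran and Rasl2-9, and of Eef1a1, Pabpc1 and Sumo2, which have close copies or pseudogenes, are uncertain, since the assignment of shared reads is not given in the sources used here. Likewise no strand setting is given, so reads from overlapping antisense genes cannot be told apart.

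**Figure D1:**
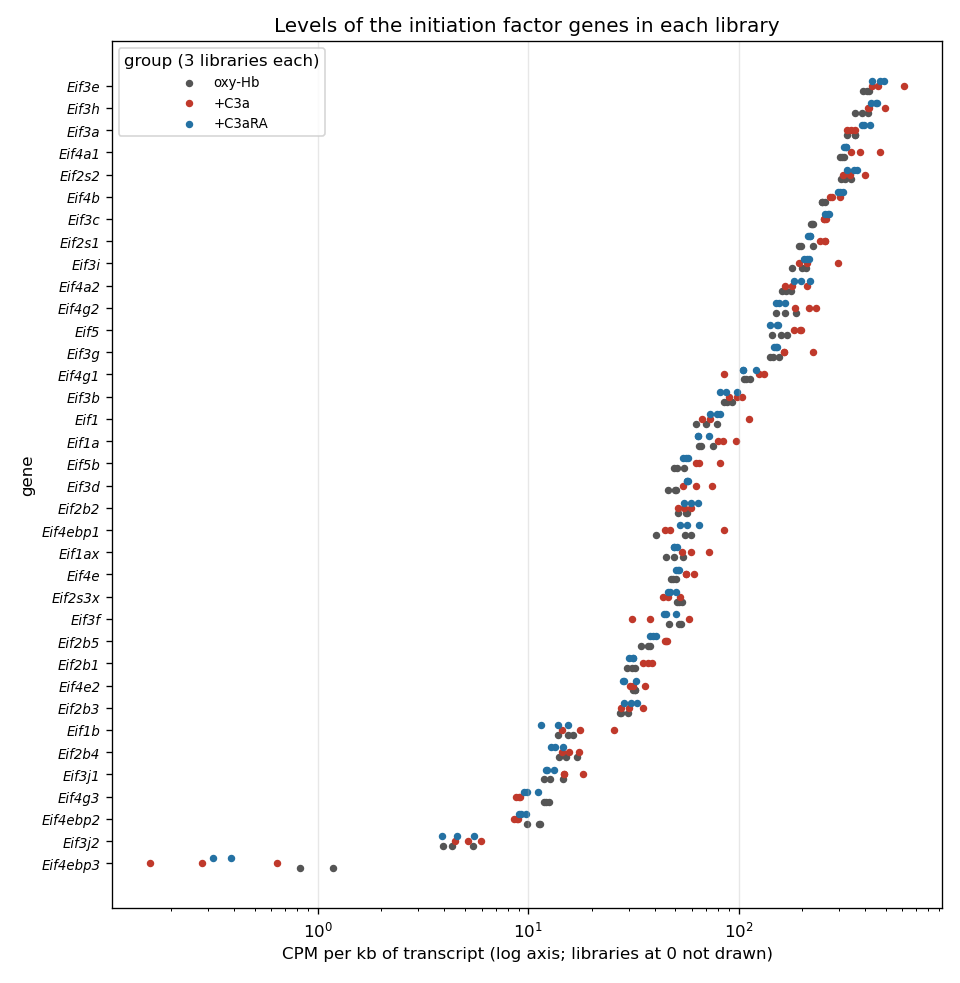
Level of each of the 36 initiation factor genes, in CPM per kb of transcript on a log axis, with 1 point per library, colours for the 3 groups of 3 libraries, and libraries at 0 not drawn. Levels span from under 1 CPM per kb for Eif4ebp3 to 457 CPM per kb on average for Eif3e, and the spread between genes is far wider than that between groups.

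The comparison of oxy-Hb with C3a against oxy-Hb alone addressed what the C3aR ligand changed in cells already exposed to oxy-Hb. Of the 133 tested members, 6 were called at an adjusted p below 0.05 in edgeR's quasi-likelihood test, against 3.94% of all 14146 tested genes. Clns1a, Eif5b, Gm49336 and Sumo3 rose, against 0.905% of genes called higher, and Eif4g3 and Upf1 fell, against 3.04% called lower. The split of members was 2 higher and 5 lower with total count scaling, 3 and 3 with upper quartile scaling, and 17 and 1 once each library was corrected for transcript length and GC content. Over all genes, 128 were higher and 430 lower. That split was 34 and 664 with total count scaling, 112 and 495 with upper quartile scaling, and 818 and 346 after the length and GC correction. In bulk RNA, a change in the share of cells that express a gene and a change per cell cannot be told apart. The initiation factors had a median log2 fold change of 0.20, and 30 of the 35 tested had a positive value. The median was 0.18 over all members, with 97 of 133 positive, and 0.00 over all tested genes, with 7098 positive. In 37 members all 3 C3a libraries lay above all 3 oxy-Hb libraries and in 11 all lay below, where 13.2% and 14.6% of tested genes did so. Of the 37, 14 were initiation factors.

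Among nuclear pore genes, Gm49336 was called. This locus is assigned by the table to nucleoporin p58/p45, a protein of the central channel. Its level was 73.3, 74.8 and 86.3 CPM in oxy-Hb, 97.3, 108 and 115 CPM with C3a and 66.8, 77.1 and 74.7 CPM with C3aRA. The C3a libraries were the 3 highest of the 9, and the other groups overlapped each other. The log2 fold change with C3a was 0.45 ± 0.11 (SE from the shared fit of all 9 libraries, n = 3 per group, adjusted p = 0.0391, edgeR). For the nuclear pore genes as a whole the median was 0.07, with 18 of 30 positive, and -0.01 with total count scaling, under which the median of all genes was -0.09. The larger falls were in Nup210, a membrane-spanning nucleoporin, and Pom121, a membrane anchor of the pore, and neither passed the test. Nup210 was 76.9, 69.4 and 54.3 CPM in oxy-Hb and 45.4, 21.9 and 42.8 CPM with C3a, a log2 difference of -0.87 ± 0.24 (adjusted p = 0.0602, edgeR) with no overlap between the groups. Pom121 was 17.9, 22.3 and 17.3 CPM in oxy-Hb and 11.7, 12.1 and 14.2 CPM with C3a, also without overlap (-0.60 ± 0.18, adjusted p = 0.0764, edgeR).

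No transport factor was called with C3a. Their median log2 fold change was 0.16 and 13 of 16 were positive. Ran was 649, 661 and 684 CPM in oxy-Hb and 688, 866 and 777 CPM with C3a, and the 3 C3a values were above the 3 oxy-Hb values (0.23 ± 0.10, adjusted p = 0.192, edgeR). The transfer RNA exporter Xpot also had groups that did not overlap, at 215, 227 and 227 and 273, 229.6 and 282 CPM (0.23 ± 0.10, adjusted p = 0.188, edgeR). The export complex subunit Thoc6, at a mean of 11.8 CPM in oxy-Hb, had a difference of 0.46 ± 0.20 (adjusted p = 0.174, edgeR). For Xpo1, the main protein exporter, and Kpnb1, importin beta, the log2 differences were 0.06 ± 0.12 and -0.01 ± 0.10. Xpo1, Kpnb1 and the microRNA precursor exporter Xpo5 each had their lowest value of the 9 libraries in C3a replicate 2.

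Of the initiation factors, 2 were called with C3a, in opposite directions. Eif5b, which encodes the GTPase that joins the ribosomal subunits, was 384, 399 and 429 CPM in oxy-Hb, 487, 634 and 508 CPM with C3a and 448, 436 and 426 CPM with C3aRA. All 3 C3a libraries were above the other 6, with C3a replicate 2 the highest, and the rise was 0.43 ± 0.11 on the log2 scale (adjusted p = 0.0453, edgeR). Eif4g3, one of the eIF4G scaffolds that link the cap to the small subunit, was 96.3, 98.9 and 103 CPM in oxy-Hb, 74.2, 71.0 and 73.4 CPM with C3a and 80.1, 77.5 and 90.2 CPM with C3aRA. The 3 groups did not overlap, with oxy-Hb highest and C3a lowest, and the C3a libraries lay close together. Eif4g3 fell by 0.45 on the log2 scale, with an SE of 0.10 (adjusted p = 0.0261, edgeR). In the fit with each library corrected for length and GC content its difference was -0.10 (adjusted p = 0.618), and with C3a replicate 2 also left out it was -0.27 (adjusted p = 0.0305). Without that library and with no correction it was -0.43 (adjusted p = 0.00264).

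The other eIF4G genes did not follow Eif4g3 in sign. Eif4g2, a related scaffold without the region that binds the cap-binding protein eIF4E, was 1209, 1330 and 1504 CPM in oxy-Hb and 1721, 1490 and 1859 CPM with C3a, 0.33 ± 0.11 on the log2 scale (adjusted p = 0.103, edgeR). Eif4g1, the main scaffold, was 600.1, 615 and 640.2 CPM in oxy-Hb and 744, 479 and 706 CPM with C3a, and the log2 difference was 0.06 ± 0.14. Its value in C3a replicate 2 was below all other libraries, while the other C3a values were above all oxy-Hb values. Among the remaining cap-complex genes, Eif4a1 was 553, 566 and 536 CPM in oxy-Hb and 609.8, 835 and 673 CPM with C3a (0.36 ± 0.11, adjusted p = 0.0845, edgeR). Eif4e was 237, 244 and 252 and 280.0, 282 and 305 CPM in the same groups (0.24 ± 0.09, adjusted p = 0.13). In both genes the groups did not overlap.

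Genes of the steps before and after cap binding had mostly positive values below the threshold. All 4 genes of eIF1 and eIF1A, which keep the small subunit open for scanning, lay between 0.25 and 0.34 on the log2 scale, with a median of 0.33 that was 0.13 without C3a replicate 2. Eif2s1, the eIF2 alpha subunit on which the stress kinases act, was 660.3, 676 and 771 CPM in oxy-Hb and 834, 876 and 878 CPM with C3a (0.30 ± 0.09, adjusted p = 0.0868, edgeR), and the groups did not overlap. Its partner subunits Eif2s2 and Eif2s3x had 0.11 and -0.14. All 5 eIF2B genes were positive, and 3 without C3a replicate 2, led by Eif2b5, the catalytic subunit, at 0.31 ± 0.10 (adjusted p = 0.0767, edgeR). In eIF3, 9 of 11 subunit genes were positive with a median of 0.20, and in 5 all C3a libraries were above all oxy-Hb libraries, against 13.2% of tested genes. Eif3d, a subunit with its own cap-binding activity, was 94.3, 95.6 and 88.0 CPM in oxy-Hb and 104, 142 and 119 CPM with C3a (0.39 ± 0.12, adjusted p = 0.0709, edgeR). Eif3f went the other way in sign, at 132, 134 and 117 CPM in oxy-Hb and 95.1, 146 and 78.5 CPM with C3a (-0.26 ± 0.18, adjusted p = 0.394). Its value in C3a replicate 2 was the highest of the 9 libraries and its other C3a values were the 2 lowest. Eif4ebp1, a repressor of eIF4E, spread widely with C3a at 93.8, 169.9 and 89.4 CPM, against 111, 118 and 80.6 CPM in oxy-Hb, and the groups overlapped. Eif5, the GTPase activator of eIF2, was 582, 642 and 689.5 CPM in oxy-Hb and 742, 798 and 799.8 CPM with C3a (0.29 ± 0.10, adjusted p = 0.0994, edgeR).

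Of the other RNA transport genes, 3 were called with C3a. Sumo3, a ubiquitin-like modifier that is attached to proteins of the pore among many others, was 73.8, 81.3 and 77.9 CPM in oxy-Hb, 100.1, 121 and 108 CPM with C3a and 85.7, 98.7 and 95.2 CPM with C3aRA. The 3 groups did not overlap, and Sumo3 rose by 0.50 ± 0.11 (adjusted p = 0.0226, edgeR), the lowest adjusted p of the members. Clns1a, a chaperone that holds Sm proteins before small nuclear ribonucleoprotein assembly, was 99.8, 96.0 and 115 CPM in oxy-Hb, 129.6, 169 and 150.0 CPM with C3a and 113, 112 and 102 CPM with C3aRA. Only the C3a libraries stood apart, and the rise was 0.53 ± 0.12 (adjusted p = 0.0253, edgeR).

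Upf1, the helicase at the centre of nonsense-mediated decay, was 67.8, 67.9 and 67.8 CPM in oxy-Hb, 54.1, 38.8 and 50.5 CPM with C3a and 59.8, 52.6 and 55.8 CPM with C3aRA. All 6 libraries with an addition were below the 3 oxy-Hb libraries, and C3a replicate 2 was the lowest. Upf1 fell by 0.50 with C3a, with an SE of 0.13 (adjusted p = 0.0409, edgeR), and its difference was -0.20 after the length and GC correction (adjusted p = 0.257) and -0.09 with C3a replicate 2 also left out (adjusted p = 0.598). Of its partners, Upf2 had -0.10, Upf3a 0.22 and Upf3b -0.05, none past the threshold. Of the 14 RNase P and transfer RNA processing genes, 12 were positive with a median of 0.27, against 9 and 0.12 without C3a replicate 2, and none was called. Pabpc1 had -0.10 ± 0.12 and Fmr1, the fragile X protein that binds messenger RNA at synapses and elsewhere, 0.13 ± 0.15.

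**Figure D2:**
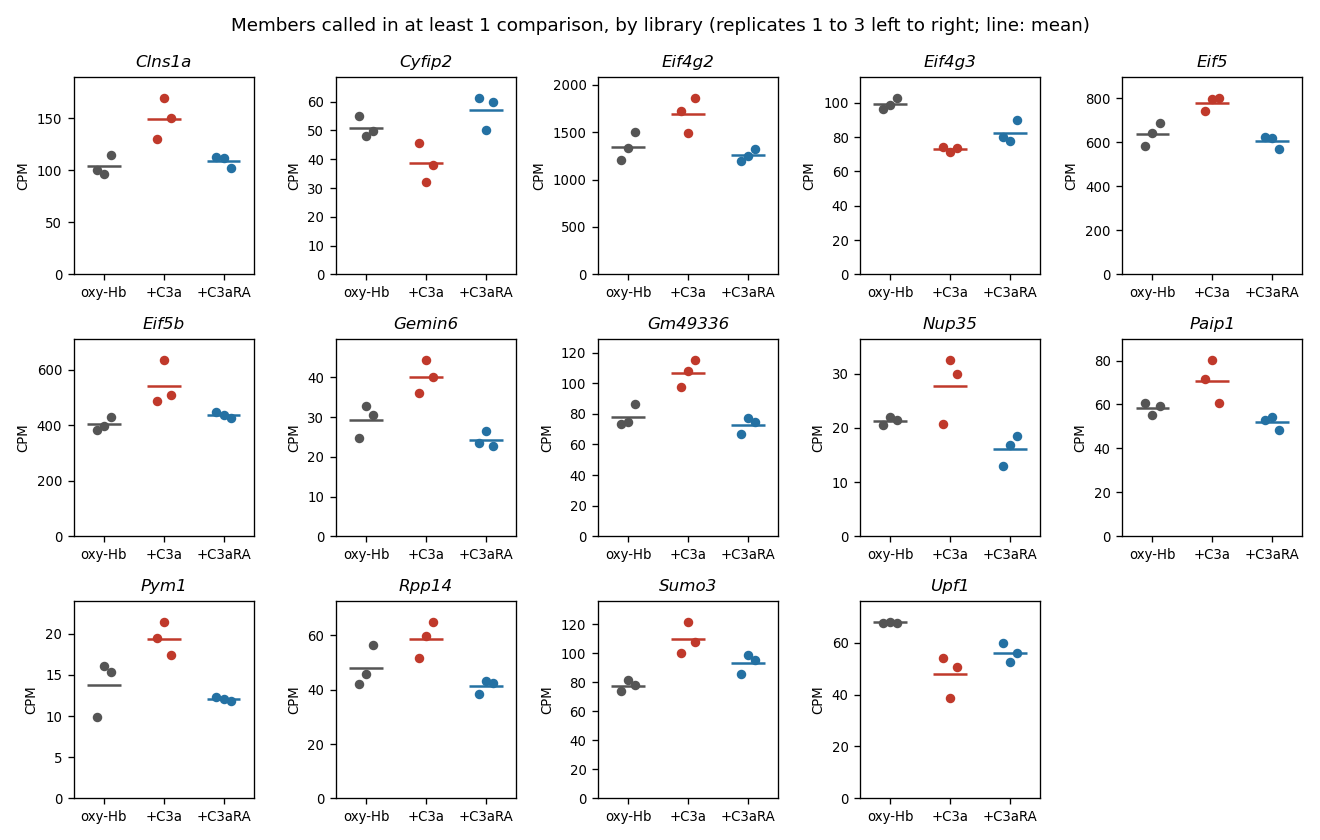
TMM-scaled CPM of the 14 members called in at least 1 comparison, 1 panel per gene with the axis from 0, 3 points per group in the order of replicates and a line at the mean. Sumo3, Clns1a, Gm49336 and Eif5b are higher in all 3 C3a libraries than in oxy-Hb, and Eif4g3 and Upf1 lower.

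The calls of this comparison depended on single libraries. None of the 6 held when oxy-Hb replicate 1 or 2 was left out, 2 held without oxy-Hb replicate 3 (Clns1a and Gm49336), 1 without C3a replicate 3 (Sumo3), and 2, 2 and 3 without C3aRA replicate 1, 2 or 3. Over these 7 fits 54 to 444 genes were called in all. Without C3a replicate 1 all 6 held among 21 called members, against 11.2% of all genes, and without C3a replicate 2 all 6 held among 22, and in a fit of the 2 groups alone 0 members were called, against 99 genes in all (0.72%).

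**Figure D3:**
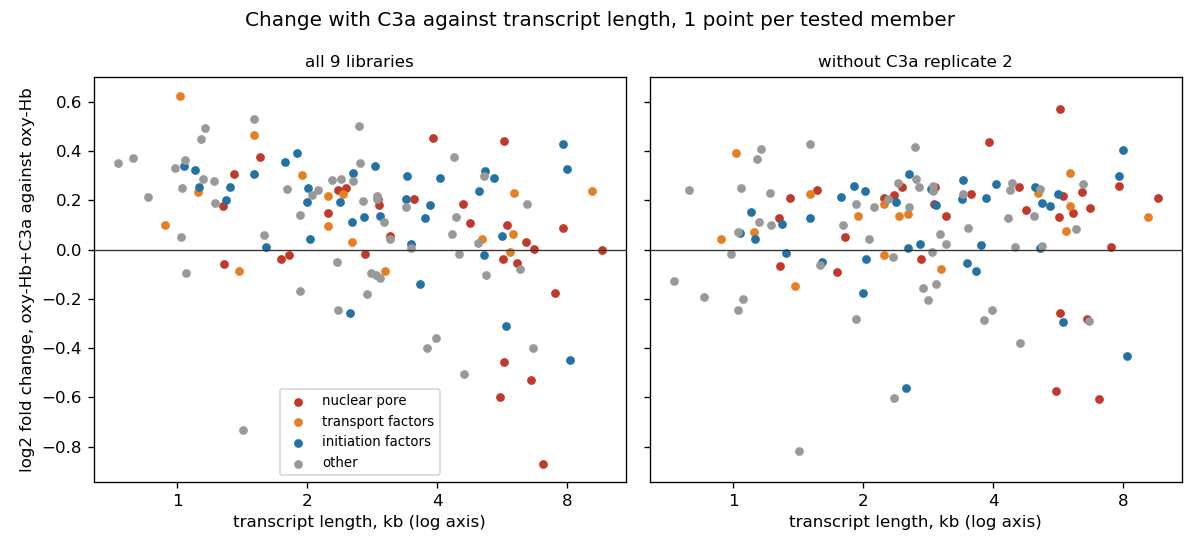
Log2 fold change of the 133 tested members with C3a against oxy-Hb, plotted against transcript length in kb on a log axis, with all 9 libraries on the left and without C3a replicate 2 on the right, coloured by role. With all libraries the values decline with length (Spearman -0.38), and without C3a replicate 2 they do not (0.10 over 134 members, Eif4ebp3 included, which is not drawn).

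Transcript length moved with these values where C3a replicate 2 was included. Over the 133 members, Spearman's correlation of the C3a log2 fold change with transcript length was -0.38 with all libraries and -0.25 over all tested genes, and without C3a replicate 2 it was 0.10 over the members and -0.02 over all genes. With GC content the correlation was -0.21 over the members and -0.15 over all genes, and it was larger without C3a replicate 2, at -0.37 and -0.28. These correlations are across genes that share the same libraries and are given as a description. C3a replicate 2 was the lowest of the 9 libraries in 25 of the 45 longest members (3797 to 9608 bases) and in 0 of the 44 shortest (729 to 2057 bases), and the highest in 6 and 32. Ranbp2, the large nucleoporin of the cytoplasmic filaments, was 612, 349 and 589.5 CPM in the 3 C3a libraries and 508, 493 and 550.3 CPM in oxy-Hb. Nup205 of the inner ring was 381, 229 and 390.4 CPM with C3a and 329, 319.5 and 332 CPM in oxy-Hb, and Tpr of the nuclear basket 387, 239 and 382 and 371, 375 and 394 CPM. In all 3 genes the low C3a value was replicate 2.

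The order of the classes changed with that library. Summed over the 30 nuclear pore genes, the level was 3963, 3979 and 4010 CPM in oxy-Hb and 4317, 3395 and 4507 CPM with C3a, so that C3a replicate 2 was the lowest library and the others were above oxy-Hb. Summed over the 35 tested initiation factors it was 12695, 12695 and 13206 CPM in oxy-Hb and 14392, 15237 and 14458 CPM with C3a, and all 3 C3a libraries were above oxy-Hb. Without C3a replicate 2 the class medians were 0.18 for nuclear pore genes, 0.14 for transport factors, 0.14 for initiation factors and 0.09 for the others, in place of 0.07, 0.16, 0.20 and 0.18. The median over all members was 0.14 without it, against 0.18 with it, and the median of all tested genes was -0.01.

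Without C3a replicate 2, 22 of 134 tested members were called with C3a, 16 higher and 6 lower, against 9.55% of all genes, 4% higher and 5.55% lower. The 6 members named above were among them. Nup155 (0.26, adjusted p = 0.0224, edgeR) and Nup205 (0.23, adjusted p = 0.0315) of the inner ring and Nup88 (0.25, adjusted p = 0.0265) of the cytoplasmic face then rose, while Nup210 (-0.61, adjusted p = 0.00295) and Pom121 (-0.57, adjusted p = 0.0426) fell. Xpot rose by 0.31 (adjusted p = 0.00581, edgeR). Of the initiation factors, Eif2b5, Eif2s1, Eif4e, Eif4g2, Eif5 and Eif5b rose, by 0.25 to 0.40, and Eif3f (-0.56, adjusted p = 0.000147) and Eif4g3 fell. Cyfip1, Prmt5 and Strap rose and Srrm1 fell among the others. In the fit corrected for length and GC content, with all libraries kept, 18 members were called, 17 higher and Nup210 lower, against 8.24% of all genes (5.79% higher and 2.45% lower). Clns1a, Eif5b, Gm49336 and Sumo3 were still called, and Eif4g3 and Upf1 were not. With the correction and C3a replicate 2 left out, Eif4g3 was called lower again, and Upf1 alone of the 6 was not called. The correction moved the median of all genes to 0.11 and the split of all calls from 128 higher and 430 lower to 818 higher and 346 lower, while the members' median moved from 0.18 to 0.22. The part of length in the single-gene calls was not tested beyond these fits.

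The comparison of oxy-Hb with C3aRA against oxy-Hb alone addressed what the second addition changed. No member was called, and none of the 14146 tested genes (0%) passed in edgeR, where 1153 genes (8.15%) and 11 members had an unadjusted p below 0.05. DESeq2 called 11 genes (0.0778%) and limma-voom 0, none of them members. A fit of these 2 groups alone, whose spread does not include the C3a libraries, called 603 genes (4.43%), among them the 5 members Eif3c, Eif4a2, Eif4b, Nup88 and Nxf7, all higher. Without C3a replicate 2 the shared fit called 475 genes (3.25%) and 4 members, Eif3c, Eif4b, Nup88 and Nxf7.

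Eif4b, which stimulates the Eif4a helicase, was 991, 961 and 957 CPM in oxy-Hb, 1214, 1142 and 1172 CPM with C3aRA and 1174, 1051 and 1075 CPM with C3a. All 6 libraries with an addition were above the 3 of oxy-Hb, and the C3aRA difference was 0.28 ± 0.09 (adjusted p = 0.487, edgeR, all 9 libraries). Eif3c, a core subunit of eIF3, was 765, 752 and 748 CPM in oxy-Hb, 898, 912 and 875 CPM with C3aRA and 884, 865 and 862 CPM with C3a, again with both additions above oxy-Hb (0.25 ± 0.09, adjusted p = 0.504). Nup88 was 266, 241 and 246 CPM in oxy-Hb, 288, 308 and 291 CPM with C3aRA and 302, 295 and 297 CPM with C3a (0.24 ± 0.09, adjusted p = 0.534), and both additions were again above oxy-Hb. Nxf7, a member of the messenger RNA export receptor family, was 48.3, 51.0 and 49.8 CPM in oxy-Hb and 62.8, 69.3 and 60.0 CPM with C3aRA, without overlap (0.37 ± 0.12, adjusted p = 0.49). Its C3a values, 52.2, 61.0 and 46.0 CPM, overlapped those of oxy-Hb.

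With C3aRA the class medians were 0.03 for nuclear pore genes, 0.11 for transport factors, 0.05 for initiation factors and -0.02 for the others, and 0.03 over the members against -0.01 over all tested genes. In 26 members all C3aRA libraries were above all oxy-Hb libraries and in 12 all were below, where 11.9% and 11% of tested genes did so. In eIF3, 5 of 11 genes had such higher values, against the same 11.9% (Eif3a, Eif3c, Eif3d, Eif3e and Eif3h). Eif3a, the largest eIF3 subunit, was 1839, 1679 and 1829 CPM in oxy-Hb, 2157, 1977 and 2032 CPM with C3aRA and 1841, 1673 and 1749 CPM with C3a, so that only C3aRA lay above oxy-Hb (0.21 ± 0.09, adjusted p = 0.605, edgeR). Eif4g3 and Upf1 each had -0.27 with C3aRA, at adjusted p = 0.531 and 0.605, with no overlap with oxy-Hb.

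The authors' deposited table differed in count. It gives an adjusted p below 0.05 for 14 of the 135 members with C3aRA, 13 of them higher, against 3.12% of its 22935 genes, and 2.06% higher. In the authors' deposited table these were Eif4b (log2 fold change 0.28, adjusted p 3.13e-05), Eif3c (0.25), Eef1a1 (0.19), Nxf7 (0.37), Nup88 (0.24), Nup205 (0.17), Cyfip1 (0.20), Eif3a (0.21), Eif3d (0.23), Eif3e (0.20), Eif3h (0.21), Eif4a2 (0.24) and Sumo3 (0.27), and Eif4g3 was lower (-0.26). For C3a, the authors' deposited table has 5 members below 0.05, against 2.21% of its genes. These are Clns1a, Gm49336 and Sumo3 higher and Eif4g3 and Nup210 lower. Both lists use the same oxy-Hb libraries. The 22935 genes include genes with low counts. The filter used here kept 14146 of them, but 133 of the 135 members. The shares of the authors' calls among genes with enough counts to be tested were not computed.

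**Figure D4:**
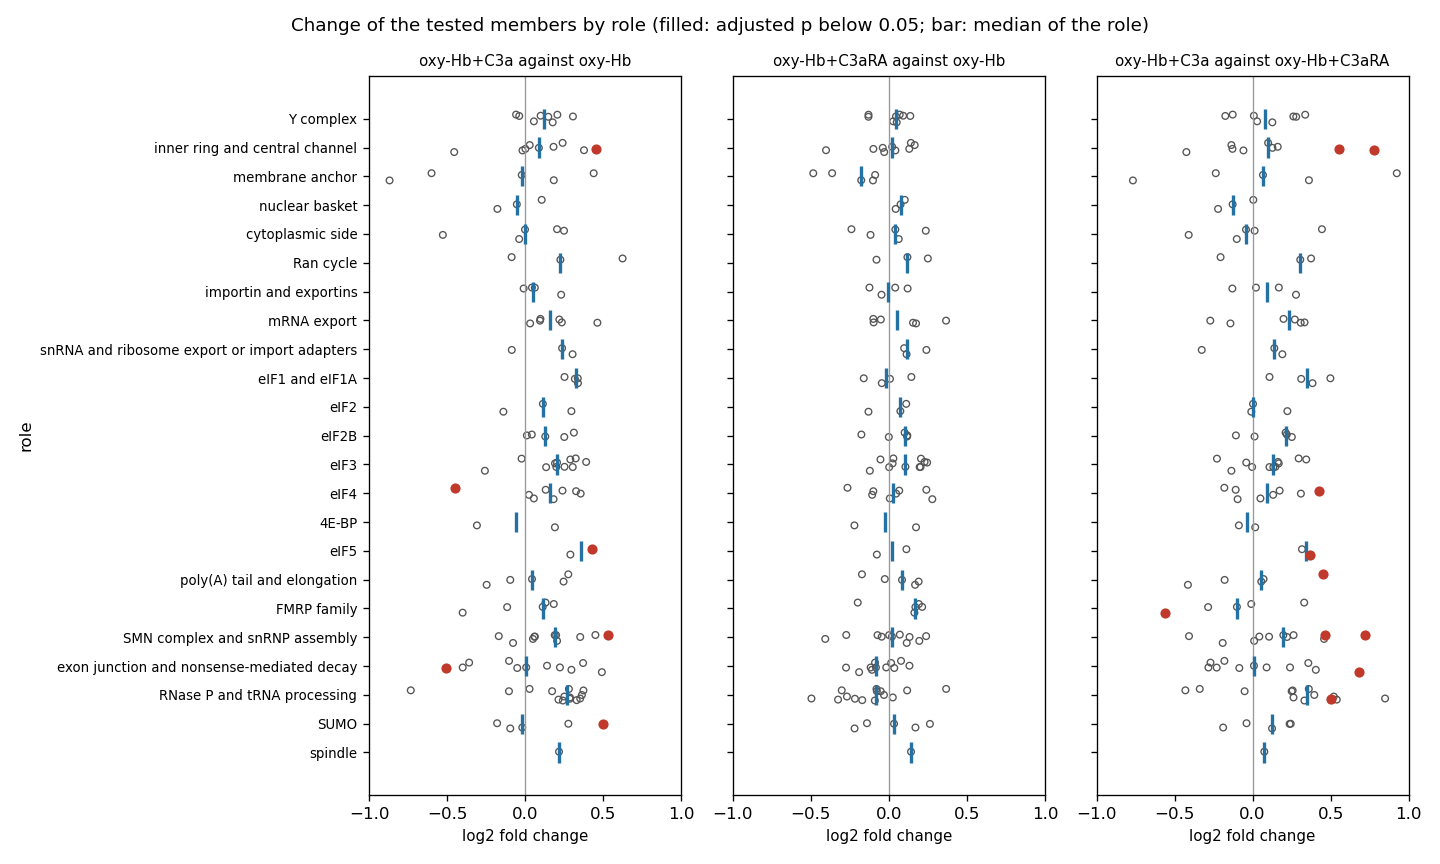
Log2 fold change of the 133 tested members in the 3 comparisons, 1 point per gene, arranged by complex or step within the 4 classes, with filled points for an adjusted p below 0.05 and a bar at each median. The comparison with C3a against oxy-Hb has 6 filled points, that of C3aRA against oxy-Hb 0, and that of C3a against C3aRA 10.

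The direct comparison of C3a against C3aRA, both on oxy-Hb, called 10 members, 9 higher with C3a and 1 lower, against 6.19% of all genes (2.87% higher and 3.32% lower). Higher were the nuclear pore genes Gm49336 and Nup35, the initiation factors Eif4g2 and Eif5, and Clns1a, Gemin6, Paip1, Pym1 and Rpp14. Cyfip2 was lower. The median log2 difference was 0.11 over the members, with 87 of 133 positive, and 0.01 over all genes. By class it was 0.01 for nuclear pore genes, 0.18 for transport factors, 0.13 for initiation factors and 0.11 for the others, and without C3a replicate 2 it was 0.08, 0.10, 0.09 and 0.10. In 39 members the C3a libraries were all above the C3aRA libraries and in 13 all below, where 14.1% and 14.7% of tested genes did so.

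Gemin6, a subunit of the SMN complex that loads Sm rings onto small nuclear RNAs, had the lowest adjusted p. It was 36.0, 44.3 and 40.2 CPM with C3a, 23.5, 26.6 and 22.8 CPM with C3aRA and 24.8, 32.7 and 30.6 CPM in oxy-Hb. The C3a libraries were the 3 highest, oxy-Hb overlapped C3aRA, and the difference was 0.72 ± 0.14 (adjusted p = 0.0126, edgeR). Nup35, an inner ring nucleoporin, was 20.7, 32.4 and 29.9 CPM with C3a, 13.0, 16.9 and 18.4 CPM with C3aRA and 20.6, 21.9 and 21.5 CPM in oxy-Hb. Here C3aRA was below oxy-Hb without overlap, and C3a replicate 1 fell within the oxy-Hb range. The log2 difference was 0.78 ± 0.18 (adjusted p = 0.0248, edgeR). Gm49336 differed by 0.55 ± 0.11 (adjusted p = 0.0158) and Clns1a by 0.46 ± 0.12 (adjusted p = 0.0355, edgeR), with values given above.

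Eif4g2 was 1200, 1251 and 1323 CPM with C3aRA, all below its C3a values given above (0.43 ± 0.11, adjusted p = 0.04, edgeR). Eif5 was 623, 620.2 and 571 CPM with C3aRA, also below all C3a libraries (0.37 ± 0.10, adjusted p = 0.0418). In both genes C3aRA overlapped oxy-Hb. Paip1, which binds poly(A) binding protein and promotes initiation, was 71.5, 80.1 and 60.8 CPM with C3a and 52.9, 54.3 and 48.5 CPM with C3aRA (0.45 ± 0.12, adjusted p = 0.0405). Oxy-Hb, at 60.6, 55.4 and 59.5 CPM, lay between them without overlap. Pym1, which releases exon junction complexes from translated messages, was 19.5, 21.4 and 17.4 CPM with C3a, 12.3, 12.1 and 11.8 CPM with C3aRA and 9.93, 16.1 and 15.3 CPM in oxy-Hb (0.68 ± 0.18, adjusted p = 0.0431, edgeR). Its C3aRA values were close together and fell inside the range of oxy-Hb.

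Rpp14, a subunit of RNase P, which trims the 5′ end of transfer RNA, was 51.6, 59.7 and 64.8 CPM with C3a, 38.5, 43.4 and 42.4 CPM with C3aRA and 42.1, 45.8 and 56.6 CPM in oxy-Hb. C3a and C3aRA did not overlap, and oxy-Hb overlapped both (0.50 ± 0.13, adjusted p = 0.0409, edgeR). Over the 14 RNase P and transfer RNA processing genes the median was 0.35, with 11 positive, and in 5 all C3a libraries were above all C3aRA libraries, where 14.1% of tested genes did so. Without C3a replicate 2 the median was 0.21, with 12 positive. Cyfip2, which links the fragile X protein to the actin-regulating WAVE complex, was 45.8, 32.2 and 37.9 CPM with C3a, 61.2, 50.0 and 60.1 CPM with C3aRA and 55.1, 47.9 and 49.9 CPM in oxy-Hb. C3a was below both other groups, and the log2 difference from C3aRA was -0.56 ± 0.14 (adjusted p = 0.0324, edgeR). Its relative Cyfip1 differed by -0.01 ± 0.10. Ran (0.31 ± 0.10, adjusted p = 0.0871) and Eif1a (0.38 ± 0.11, adjusted p = 0.0525) came near the threshold without passing it.

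Leaving out C3aRA replicate 1 or 3 ended all 10 calls, C3aRA replicate 2 left Gemin6, C3a replicate 3 left Gemin6, Gm49336 and Paip1, and oxy-Hb replicates 1, 2 and 3 left 5, 3 and 6. Over these 7 fits 53 to 575 genes were called in all. Without C3a replicate 1 all 10 held among 25 called members (11.4% of all genes), and without C3a replicate 2 among 27 (12.5%). Those 27 were 21 higher and 6 lower, where 872 and 955 of all genes were. The 2 groups fitted alone called Gemin6 only (0.875% of genes). Total count scaling called 5 members and 713 of all genes. After the length and GC correction Cyfip2 was no longer called (-0.35, adjusted p = 0.0503). With C3a replicate 2 also left out Cyfip2 was called again (-0.37, adjusted p = 0.0153), and Paip1 was the only one of the 10 not called (0.28, adjusted p = 0.0597). With all libraries kept, the correction moved the split of all genes from 406 higher and 470 lower to 750 and 457.

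Neighbouring genes of the pathway outside the set were examined in 4 lists. Over all tested genes, 3.94% were called with C3a against oxy-Hb, 0% with C3aRA against oxy-Hb and 6.19% with C3a against C3aRA. Of 23 tested importins, exportins and Ran cofactors, Ranbp1, which helps hydrolyse GTP on exported Ran, rose with C3a against oxy-Hb (0.72 ± 0.14, adjusted p = 0.0162, edgeR), and the import receptor gene Tnpo2 fell (-0.58 ± 0.11, adjusted p = 0.0119). Both also differed from C3aRA in the same direction, and Kpna4, an importin alpha gene, was lower with C3a than with C3aRA (-0.76 ± 0.12, adjusted p = 0.00556). Kpna4 had means of 185.5 CPM in oxy-Hb, 150 with C3a and 254 with C3aRA. Its log2 differences from oxy-Hb were -0.31 with C3a and 0.45 with C3aRA, neither called with all libraries. The Kpna4 call against C3aRA held with each of the 9 libraries left out in turn, while the calls against oxy-Hb held in 7 of the 9 for Ranbp1 and in 8 for Tnpo2. Of 8 eIF2 kinase and phosphatase genes, Eif2ak3 (PERK) and Ppp1r15a (GADD34) were lower with C3a than with C3aRA. The differences were -0.87 ± 0.17 (adjusted p = 0.0145) and -0.85 ± 0.21 (adjusted p = 0.0355, edgeR). Eif2ak3 had means of 11.4 CPM in oxy-Hb, 9.45 with C3a and 17.3 with C3aRA, and Ppp1r15a 37.4, 27.7 and 50.0. With all libraries none of the 8 was called against oxy-Hb. Without C3a replicate 2, Eif2ak3 was higher with C3aRA than in oxy-Hb (0.60, adjusted p = 0.0351, edgeR). In the same fit Ppp1r15a was lower with C3a than in oxy-Hb (-0.72, adjusted p = 0.00269). The calls against C3aRA held in 7 of the 9 left-out fits for Eif2ak3 and in 2 for Ppp1r15a. Of 18 other initiation genes, Pdcd4, an inhibitor of Eif4a, was lower with C3a than with C3aRA (-0.48 ± 0.12, adjusted p = 0.0318), a call that held in 3 of 9. Its means were 35.35 CPM in oxy-Hb, 36.1 with C3a and 50.6 with C3aRA, so that C3a lay near oxy-Hb and C3aRA above it. Without C3a replicate 2, Pdcd4 was called higher with C3aRA than in oxy-Hb (0.52, adjusted p = 0.00723, edgeR). None of 10 elongation and release factor genes was called in the 3 comparisons.

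The 13 genes that carry both pathway terms include the exon junction complex core and the cap-binding complex. Of these, 1 was called with C3a against oxy-Hb and 3 with C3a against C3aRA, where 3.94% and 6.19% of all tested genes were. Magoh rose with C3a against oxy-Hb (0.64 ± 0.16, adjusted p = 0.0395, edgeR), and by 0.42 without C3a replicate 2 (adjusted p = 0.0126). Against C3aRA, Magoh (0.77 ± 0.16, adjusted p = 0.0163), Ncbp2 (0.70 ± 0.12, adjusted p = 0.00845) and Alyref (0.48 ± 0.11, adjusted p = 0.0221) were higher with C3a. Leaving out each library in turn, the Magoh call against oxy-Hb held in 3 of 9 fits and the calls of Magoh, Ncbp2 and Alyref against C3aRA in 7, 8 and 5. The median log2 difference of the 13 genes from oxy-Hb was 0.29 with C3a, and 0.15 without C3a replicate 2, beside 0.18 and 0.14 over the tested members.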

How the data were processed

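BV2 cells were profiled by RNA-seq from total RNA with a SMARTER messenger RNA kit, per the labels' protocols. The authors deposited 2 tables of raw counts per gene, each comparing 1 addition with oxy-Hb, and the 3 oxy-Hb libraries are in both, with 0 counts differing between the tables. The same tables hold the authors' log2 fold change and adjusted p-value per gene. The reference was GRCm38 (mm10), per the submitters' processing notes, while aligner, counting program and strand setting were not given in the sources used here. There were 0 unmapped columns of per-sample values.

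Counts of the 9 libraries were fitted together with edgeR 4.0.16 (R 4.3.3), with TMM scaling, a filter on low counts (filterByExpr, minimum 10), 1 coefficient per group and the robust quasi-likelihood test. This kept 14146 genes, and p-values were adjusted by Benjamini-Hochberg over all of them, with 0.05 as the threshold. CPM are counts scaled to the TMM-adjusted library size. Each SE is the absolute log2 fold change divided by the square root of the F statistic of that test. It thus rests on the spread of all 9 libraries. Levels per kb and the length and GC correction used the longest protein-coding transcript in GENCODE M21, and 129 of the 135 members had the same start and end there. The 20 alternative settings included other scalings, filters, limma-voom (limma 3.58.1), DESeq2 1.42.0, a block for the replicate number, the 2 groups alone and each library left out. Tables were handled with Python 3.11.15. The fitting steps were tested on simulated data.

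The members and lists were chosen with earlier results of these data known. The members to be named were every called one and, in each role, the 3 with the lowest p in each comparison. To these were added the 2 highest and 1 lowest levels in each role and a panel of 15 genes. Of that panel, Nxf1 is not a member. Not all of the genes so picked are described above: Phax, Nxt2, Snupn, Elac1, Thoc5, Seh1l, Rae1, Nup98 and Eif2b1 are not. Other members named were singled out after their values were seen.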

Additional observations from a re-analysis of the deposited data

How the results depend on the processing

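For the called or lowest-p members followed in each comparison (12, 12 and 15 genes), the direction was the same under all 20 settings. These genes were picked for their low p in the same libraries, so an unchanged direction was likely beforehand and is not separate evidence. Of 240 gene values with C3a against oxy-Hb, 175 stayed on their side of the threshold, 44 lost it and 21 gained it. With C3aRA against oxy-Hb 226 of 240 stayed and 14 gained it, and with C3a against C3aRA 213 of 300 stayed, 69 lost it and 18 gained it. The cause of the changes was not tested, except that leaving out libraries or groups removes samples.

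With C3a against oxy-Hb, the 558 genes called became 1033 with no count filter, 1353 with DESeq2, 99 with the 2 groups alone, 1164 after the length and GC correction, 1769 with that correction and C3a replicate 2 left out, and 54 to 1638 with each library left out. The 6 members became 12, 18, 0, 18 and 38 under the same settings and 0 to 22 with each library left out. The nuclear pore median of 0.07 was -0.01 with total count scaling, 0.20 after the correction, 0.20 with replicate 2 also left out and 0.02 to 0.18 with each library left out. The transport factor median of 0.16 was 0.07 with total count scaling, 0.07 among genes of at least 5 CPM and 0.23 after the correction. The initiation factor median of 0.20 was 0.11 with total count scaling. The median of the other members, 0.18, was 0.09 with total count scaling, 0.14 with the correction and replicate 2 left out, and 0.09 to 0.19 with each library left out. With total count scaling and after the correction the median of all genes moved in the same direction, as given above.

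With C3aRA against oxy-Hb, 0 genes became 8 with no count filter, 11 with DESeq2, 603 with the 2 groups alone, 1205 with the correction and C3a replicate 2 left out, and 0 to 475 with each library left out. The members went from 0 to 5 with the 2 groups alone, 18 with the correction and replicate 2 left out and 0 to 4 with each library left out. The transport factor median of 0.11 was 0.04 with total count scaling, and that of the other members, -0.02, was -0.08 with total count scaling, 0.04 after the correction and 0.04 with replicate 2 also left out.

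With C3a against C3aRA, the 876 genes became 713 with total count scaling, 1521 with DESeq2 and 118 with the 2 groups alone. They became 2004 with the correction and replicate 2 left out and 53 to 1827 with each library left out. The 10 members became 5 with total count scaling, 17 with DESeq2 and 1 with the 2 groups alone. They became 32 with the correction and replicate 2 left out and 0 to 27 with each library left out. Those 32 were 23 higher and 9 lower, where 1108 and 896 of all genes were. With the correction and replicate 2 left out, the nuclear pore median was 0.09 in place of 0.01 and the transport factor median 0.09 in place of 0.18, the latter 0.10 to 0.23 with each library left out. The median of the other members, 0.11, was 0.15 among genes of at least 5 CPM and 0.10 to 0.18 with each library left out.

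With the replicate number as a block, 10 members were called with C3a against oxy-Hb, 0 with C3aRA against oxy-Hb and 13 with C3a against C3aRA, beside 835, 0 and 1210 of all genes. Whether the numbers pair the samples was not settled. Libraries of the same number had correlations of -0.0405 to 0.17, and not every library correlated best with its own number. Between oxy-Hb and C3a the same numbers gave 0.032, 0.17 and 0.111, and different numbers gave -0.142 to 0.0813. Where C3aRA was 1 of the 2 groups, the same numbers gave -0.0405 to 0.066. Low counts limited 2 members, which were not tested.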
